A study of Mus musculus with 44 samples.

Results

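The 8 ATAC-seq libraries examined here compared *Sox2*-KO with Ctrl mouse embryos in the late inner cell mass (ICM) at E4.5, with 4 libraries in each group, out of 44 libraries in the whole series. In ATAC-seq the Tn5 transposase cuts accessible DNA and leaves sequencing adapters there, so that many insertions mark an open site. KO embryos carried no working *Sox2* copy. Their mothers, homozygous for a floxed allele, deleted *Sox2* in the oocyte through *Zp3-Cre*, a Cre that is active in growing oocytes, and their paternal allele lacked the gene and carried *EGFP* under the PGK promoter. Ctrl embryos came from the same matings and also lacked the maternal copy, but had 1 intact paternal copy, so they are not wildtype. All 8 libraries shared the B6C3F1 background, collection at E2.5, culture with 1 μM of the MEK inhibitor PD0325901 until isolation, removal of the outer trophectoderm by immunosurgery, and pooling of 20 to 40 ICMs of embryos told apart by EGFP under the microscope. Blocking MEK suppresses the primitive endoderm. The 8 libraries were taken by their labels, and every peak of the table was tested, 152393 windows of 200 bp. The values are rlog values, a log2 scale on which a difference of −1 is a fall to 50% of the signal and on which weak peaks are pulled toward their mean. They make differences at weak peaks smaller than they were.

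Sox2 is a transcription factor of the HMG box class that bends DNA, and in pluripotent cells it binds next to Oct4 (encoded by *Pou5f1*) on a composite site, the OCT-SOX motif. In the blastocyst Sox2 marks the cells of the ICM and later the epiblast, the source of all cells of the fetus. The trophectoderm, which forms the placenta, relies on factors of the GATA, TEAD and CDX classes, and the primitive endoderm on GATA factors and SOX17.

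Windows from among the largest falls at the composite site are shown first, limited to windows without an annotated UTR, because the site was by far more frequent among decreased than among other peaks. The site was searched on both strands as the letters TTGT, 1 base of any kind and ATGCAAA, with up to 1 mismatch. Each window is written 5′ to 3′ on the strand of the match, from GRCm38 (mm10), with every match in capitals. Those near Thsd7a, Rapgef5, Kcnk5 and Slc5a11 carry the same substitution, A10T, counted from 1 at the 5′ end of the site. The windows near Thsd7a and Rapgef5 hold a further match with A6G, and the Cnot2 window holds 2 matches with A6G. Each is named by the nearest start site of a protein-coding gene, and all of them are intergenic or intronic.
Thsd7a, chr6:12815507-12815706, plus strand: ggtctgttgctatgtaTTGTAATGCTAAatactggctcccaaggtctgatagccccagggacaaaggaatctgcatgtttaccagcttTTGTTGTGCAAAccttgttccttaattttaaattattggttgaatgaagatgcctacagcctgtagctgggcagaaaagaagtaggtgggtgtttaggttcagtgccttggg
Rapgef5, chr12:117235267-117235466, minus strand: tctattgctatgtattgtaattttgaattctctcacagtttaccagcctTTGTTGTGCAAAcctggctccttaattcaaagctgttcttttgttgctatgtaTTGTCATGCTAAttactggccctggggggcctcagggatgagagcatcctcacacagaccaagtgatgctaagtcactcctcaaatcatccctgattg
Kcnk5, chr14:20217323-20217522, plus strand: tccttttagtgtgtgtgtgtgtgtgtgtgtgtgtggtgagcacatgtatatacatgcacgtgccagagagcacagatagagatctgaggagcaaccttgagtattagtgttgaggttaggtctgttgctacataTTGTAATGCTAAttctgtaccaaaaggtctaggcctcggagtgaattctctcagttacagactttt
Cnot2, chr10:116562289-116562488, plus strand: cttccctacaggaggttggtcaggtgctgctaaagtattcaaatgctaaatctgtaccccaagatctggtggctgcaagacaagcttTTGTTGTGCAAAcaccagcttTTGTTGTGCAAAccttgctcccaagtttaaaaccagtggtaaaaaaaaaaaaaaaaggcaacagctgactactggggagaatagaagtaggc
Slc5a11, chr7:123211535-123211734, plus strand: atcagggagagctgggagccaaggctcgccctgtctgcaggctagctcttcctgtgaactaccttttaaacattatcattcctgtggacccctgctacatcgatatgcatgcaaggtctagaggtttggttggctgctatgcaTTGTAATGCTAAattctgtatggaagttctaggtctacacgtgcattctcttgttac
Mms22l, chr4:23622369-23622568, minus strand: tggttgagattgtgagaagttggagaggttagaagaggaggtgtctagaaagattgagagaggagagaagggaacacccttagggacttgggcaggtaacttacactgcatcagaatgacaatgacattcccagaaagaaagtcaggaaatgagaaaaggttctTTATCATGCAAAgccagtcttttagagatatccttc

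In the KO libraries the window 66.2 kb upstream of *Thsd7a* had rlog values of 1.57, 1.20, 1.51 and 1.19, and in the Ctrl libraries 5.67, 5.22, 5.92 and 6.06. The groups did not come near each other, and the difference was −4.35 (standard error 0.43, adjusted p = 7.23e-14). The window in an intron of *Cnot2*, a subunit of the CCR4-NOT deadenylase, read 0.67, 0.39, 0.37 and 0.75 in KO and 4.57, 4.70, 4.42 and 4.86 in Ctrl, a difference of −4.09 (adjusted p = 2.55e-13). The windows nearest to *Rapgef5*, *Kcnk5*, *Slc5a11* and *Mms22l* differed by −4.16, −4.11, −4.03 and −3.94. In each of the 6 windows every KO library lay below every Ctrl library. The windows were picked by the size of this difference, so that gap is a description. All 6 were also lower in *Sox2*-KO early ICM (E3.75), by −2.88 to −3.46, and in *Pou5f1*-KO late ICM, by −2.99 to −4.61, in libraries that share none with this comparison.

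Across all peaks, 7440 were decreased and 4129 increased in *Sox2*-KO late ICM at an adjusted p under 0.05 (limma, Benjamini-Hochberg over all peaks), which is 4.88% and 2.71% of the peaks tested. With each library left out in turn, 6036 to 6613 were decreased and 2363 to 3755 increased. When only peaks whose mean rlog reached the median were tested, 3150 were decreased and 2832 increased. The decreased peaks reached further than the increased ones. Their median difference was −1.72 and their largest −4.58, against a median of 1.37 and a largest of 2.52 for the increased peaks. A difference beyond −2 was found at 2470 peaks and beyond −3 at 415, while 103 peaks rose by more than 2 and none by more than 3. The median over all peaks was 0.0144. Every KO library lay below every Ctrl library at 6362 of the decreased peaks and above at 3274 of the increased ones, and over all peaks such a gap was seen at 6.88% and 5.63%. Peaks named below for their size or their adjusted p were picked by these same values. A gap between the groups at them is a description.

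The authors had normalized the values across libraries, so their overall level cannot show whether the libraries were alike. The median rlog was 2.49 ± 0.069 (SD, n = 4) in KO and 2.55 ± 0.0597 (SD, n = 4) in Ctrl (exact permutation test, two-sided, p = 0.257, where 0.0286 is the smallest p possible). Peaks with an rlog below 1 made up 17.9 ± 1.32% (SD, n = 4) in KO and 16.3 ± 1.37% (SD, n = 4) in Ctrl (exact permutation test, p = 0.143). Pearson correlations, taken over peaks that are no independent replicates, were 0.869 to 0.894 among KO libraries, 0.842 to 0.878 among Ctrl libraries and 0.78 to 0.827 between the groups. No library stood apart. The depth of each library is unknown, since the insertion counts were not used here. Nothing in the labels says on which days or from which matings the pools came, so p-values measure the spread between pools.

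Decreased peaks were seldom at start sites. Of them, 53.6% were intergenic and 41.2% intronic, and 1.59% lay within 100 bp of a start site, where 7.77% of all peaks did. Increased peaks were more often intronic, at 53% against 46% of all peaks, and 1.4% were at a start site. The median distance to the nearest start site of a protein-coding gene was 24.1 kb for decreased, 15.4 kb for increased and 11.7 kb for all peaks. Among the 10498 promoter peaks of protein-coding genes, 66 were decreased (0.629%) and 40 increased (0.381%).

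Decreased and increased peaks held different sequence words. The OCT-SOX word with up to 1 mismatch was found in 628 of the 7440 decreased peaks (8.44%), in 10 increased peaks (0.242%) and in 0.887% of all peaks. Read the other way, 1352 windows held the word, 46.4% of them were decreased and 0.74% increased, and their median difference was −1.13 where that of all peaks was 0.01. The 97 windows with the exact word were decreased in 63.9% of cases, and 0 were increased by limma, also at an unadjusted p under 0.05. With 2 mismatches the share decreased was 19.5%, and without a match within 2 mismatches 3.53%. The same windows were read in comparisons that share no library with this one, although all libraries entered the fit and its estimate of the variance. The windows with the word had a median of −0.78 in *Sox2*-KO early ICM and −1.52 in *Pou5f1*-KO late ICM, and of 1.12 from morula to late ICM in Ctrl embryos of the *Pou5f1* line.

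Windows with 1 mismatch did not all behave alike. Those with A10T, the change seen in the windows near *Thsd7a*, *Rapgef5*, *Kcnk5* and *Slc5a11*, numbered 155, and 114 of them were decreased (73.5%). A6T was found in 143 windows with 67.1% decreased, and A6G, as in the *Cnot2* window, in 47 windows with 76.6% decreased. A window counts under each substitution it holds, and 22 windows hold more than 1. At the other end T4G was held by 20 windows, of which 0 were decreased and 1 increased. T4C was held by 37, with 16.2% decreased. Some of these windows share more sequence than the word itself, so they are not independent of each other.

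**Figure D1:**
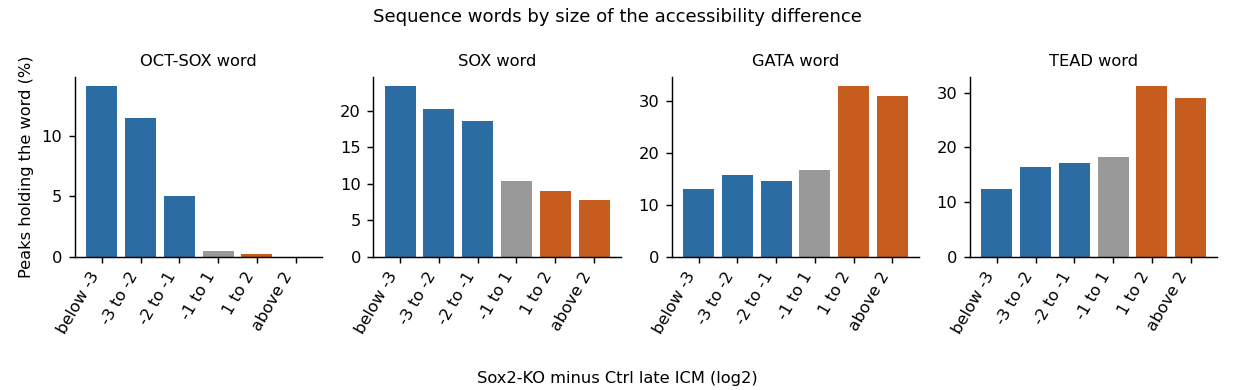
Share of peaks (%) that hold the OCT-SOX, SOX, GATA or TEAD word, for peaks grouped by the difference of *Sox2*-KO minus Ctrl late ICM (log2, horizontal axis). The OCT-SOX word falls from 14.2% of peaks below −3 to 0.448% between −1 and 1, and the GATA and TEAD words rise to 33% and 31.3% between 1 and 2.

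Single words followed the same split. The SOX word CATTGT was in 20.1% of decreased, 8.45% of increased and 10.9% of all peaks, and the octamer ATGCAAAT in 5.05%, 2.23% and 2.39%. Some words of the other lineages went the other way. AGATAA, read by GATA factors, was in 37.2% of increased peaks and 15.8% of decreased ones (17.5% of all), GGAATG, read by TEAD factors, in 33.9% and 17.3% (18.9% of all), and TTTATGG, read by CDX factors, in 9.08% and 1.45% (3.03% of all). AGGTGTGA (EOMES) and GCCTGAGGC (TFAP2), also words of trophectoderm factors, were not above the background in increased peaks, at 2.13% and 0.969% of increased, 1.24% and 1.56% of decreased and 2.62% and 1.53% of all peaks. GATA and TEAD words stood together in 12.3% of increased and 3.77% of all peaks. The words AAGGTCA (ESRRB), TGANTCA (AP-1) and CCACACCC (KLF) were in 13.8%, 9.35% and 5.51% of decreased and in 13.3%, 11% and 7.05% of increased peaks, against 9.66%, 7.75% and 8.86% of all peaks. Median GC content was 47.5% in decreased, 46.5% in increased and 50% in all windows.

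Part of the decreased windows shared sequence with other windows. Windows were joined into families where they shared at least 30 words of 20 bases, using the sequence alone, and 26 families had at least 20 windows. A link to any member was enough to join, so members of a family need not resemble each other directly. The largest family held 15930 windows. The 7 families with more than 50% of their windows decreased held 1449 windows. Of these, 984 were decreased (67.9%) and 0 increased by limma, with 1147 lower and 4 higher at an unadjusted p under 0.05, and the 984 made up 13.2% of all decreased peaks. Where 60 shared words were required, a setting chosen after seeing the data, such families held 218 decreased windows, 2.93% of all decreased peaks. The 7 families joined at 30 shared words took a larger share of the larger falls, 29.9% of the peaks below −3 and 6.19% of those between −2 and −1. These families were picked by their values, so the counts are a description. In the reference genome 34.2% of decreased, 14.5% of increased and 23% of all windows are more than 50% soft-masked as repeats. The authors kept only uniquely mapped reads, and the part of mapping in these values was not tested.

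The decreased windows with most links within families 1, 5, 7, 3 and 4 are shown for what they share. The capitals mark the word of 20 bases shared by the largest number of windows of the family. In the order printed, 29.9%, 51.1%, 53.6%, 68.6% and 43.8% of the windows held it. Families 1, 5 and 7 are written on the strand on which they resemble each other, the longest run shared by families 5 and 7 being 14 bases and by families 1 and 5 being 12 bases. In family 4 the capitals hold an OCT-SOX word with 1 mismatch.
Family 1, chr16:17978016-17978215, plus strand: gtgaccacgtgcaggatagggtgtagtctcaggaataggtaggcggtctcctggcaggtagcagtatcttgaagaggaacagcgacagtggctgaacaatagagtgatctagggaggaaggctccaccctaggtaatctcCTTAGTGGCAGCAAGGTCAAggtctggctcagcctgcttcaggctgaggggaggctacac
Family 5, chr13:22706978-22707177, plus strand: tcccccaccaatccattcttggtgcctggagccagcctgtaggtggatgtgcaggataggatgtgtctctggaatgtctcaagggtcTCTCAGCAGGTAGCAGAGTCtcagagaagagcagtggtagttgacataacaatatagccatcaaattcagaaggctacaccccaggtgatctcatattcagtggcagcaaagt
Family 7, chr7:137570235-137570434, minus strand: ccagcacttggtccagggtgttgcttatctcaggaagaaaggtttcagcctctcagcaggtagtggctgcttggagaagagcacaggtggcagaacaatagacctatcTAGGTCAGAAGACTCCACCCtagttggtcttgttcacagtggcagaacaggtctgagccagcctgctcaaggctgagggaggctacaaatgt
Family 3, chr1:3982087-3982286, minus strand: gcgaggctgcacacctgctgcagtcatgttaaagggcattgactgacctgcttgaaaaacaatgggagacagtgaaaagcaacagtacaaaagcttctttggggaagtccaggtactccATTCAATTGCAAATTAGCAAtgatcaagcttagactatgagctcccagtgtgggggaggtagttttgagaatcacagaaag
Family 4, chr19:9513975-9514174, minus strand: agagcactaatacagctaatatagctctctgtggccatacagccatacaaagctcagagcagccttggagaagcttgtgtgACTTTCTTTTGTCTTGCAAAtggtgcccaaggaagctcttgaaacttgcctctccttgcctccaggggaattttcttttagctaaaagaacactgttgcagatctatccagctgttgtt

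Family 1 was the largest, with 881 windows on 20 chromosomes, 562 of them decreased. Its median rlog was 1.98, 1.63, 2.24 and 1.89 in the KO and 4.39, 3.99, 3.79 and 3.85 in the Ctrl libraries. In family 3, 99 of 105 windows were decreased, and in family 5, 44 of 45. The medians of family 3 were 0.80, 0.52, 0.95 and 0.80 in KO and 3.83, 3.38, 3.35 and 3.61 in Ctrl, so all 4 KO libraries sat well below the Ctrl libraries. In family 4, 75.3% of the 89 windows held the OCT-SOX word with up to 1 mismatch, and 69 were decreased. In family 5 the share was 4.44%, and in families 1, 2, 3, 6 and 7 no window held it at that stringency. With up to 2 mismatches the word was in 97.8% of family 4, 95.6% of family 5 and 72.7% of family 6, and in at most 9.34% of each of the others. Outside the 7 families 8.86% of the decreased peaks held the word, so the families did not make up its share. Of all windows in the 7 families the median was −0.94 in *Sox2*-KO early ICM and −1.35 in *Pou5f1*-KO late ICM. In 2 families over 10% of the windows were increased, 33 of 184 with 1 decreased in the one and 8 of 34 with 0 decreased in the other.

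**Figure D2:**
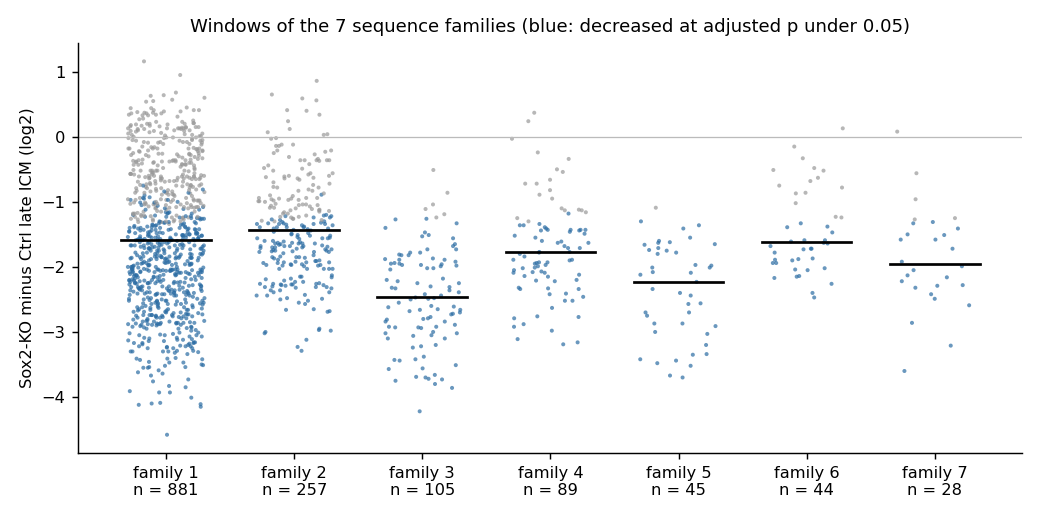
Difference of *Sox2*-KO minus Ctrl late ICM (log2, vertical axis) for every window of the 7 sequence families, blue where decreased at an adjusted p under 0.05, with a line at the median. The medians run from −1.43 in family 2 to −2.47 in family 3.

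*Sox2* itself was read first among genes, since the KO libraries should lack signal in its deleted part. The gene spans 34650405 to 34652461 on chromosome 3. A pair of windows lies between the loxP sites, in the part that the KO allele lacks. The one 480 bases upstream of the start site read 0.49, 0.68, 0.65 and 1.05 in KO and 2.35, 3.14, 3.13 and 3.28 in Ctrl, lower in every KO library. The one in the coding exon read 1.26, 1.14, 1.96 and 2.91 in KO and 3.27, 3.50, 2.42 and 2.92 in Ctrl, so that the difference of −1.21 did not pass (adjusted p = 0.0922). There KO library 4 lay within the range of the Ctrl libraries, as it did not at the upstream window. The difference passed with that library left out (−1.57), with library weights (−1.30, adjusted p = 0.0352 by limma) and with a replicate block (adjusted p = 0.0393). Of the 47 peaks within 150 kb of the gene, 4 were decreased and 1 increased. The SRR2 enhancer, 3.66 kb downstream of the start site, read 2.89, 2.29, 2.94 and 2.40 in KO and 4.04, 3.78, 4.54 and 4.27 in Ctrl, a difference of −1.53 (adjusted p = 0.0131). It holds an OCT-SOX word with 1 mismatch, and in *Pou5f1*-KO late ICM it differed by −3.10. Decreases were also found 74.3 kb upstream (−1.50, adjusted p = 0.0146) and 116.5 kb downstream (−1.61, adjusted p = 0.00754). The increased peak, 48.7 kb downstream, had values of 5.57, 5.66, 5.75 and 5.36 in KO and 5.08, 4.09, 4.32 and 2.13 in Ctrl, a difference of 1.68 (adjusted p = 0.000247). There the KO libraries were closely grouped and the Ctrl libraries were spread. Of the decreases, that of SRR2 lost its call without KO library 2 (−1.41) or Ctrl library 3 (−1.40), the upstream one without KO library 2 (−1.23) and the downstream one without Ctrl library 3 (−1.30).

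The enhancers that the study lists for pluripotency genes did not respond as 1 group. Of the 9, those of *Pecam1*, *Utf1*, *Klf2*, *Prdm14* and *Sox2* were decreased, and the others did not pass the threshold. The *Pecam1* enhancer, in an intron of this adhesion molecule gene, read 1.01, 1.24, 1.83 and 2.09 in KO against 5.75, 5.50, 5.52 and 4.77 in Ctrl, a difference of −3.84 (adjusted p = 5.24e-12). The enhancer downstream of *Utf1*, a chromatin-bound pluripotency factor, read 3.35, 3.30, 2.92 and 3.58 against 5.92, 5.83, 5.44 and 5.49, a difference of −2.39 (adjusted p = 1.12e-06). In both the KO and Ctrl values were far apart. Those of *Klf2* and *Prdm14* differed by −1.87 (adjusted p = 0.000156) and −1.66 (adjusted p = 0.0093), and at *Prdm14* the lowest Ctrl library, at 1.95, was below the highest KO library, at 2.15. Without Ctrl library 3 the *Prdm14* difference was −1.24 and did not pass.

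At the remaining 4 enhancers accessibility was high in both groups. The distal enhancer of *Nanog*, the homeobox factor of the naive epiblast, had 7.16, 7.23, 7.46 and 7.24 in KO and 7.17, 7.04, 7.48 and 7.12 in Ctrl, a difference of 0.07 with a standard error of 0.17. CR4 of *Pou5f1* had 6.93, 6.89, 6.47 and 6.49 against 6.97, 6.66, 6.94 and 6.78, a difference of −0.14 with a standard error of 0.21. The groups overlapped at both. The *Nanog* start-site enhancer differed by −0.47 (adjusted p = 0.474). At *Klf4*-B all KO libraries, 5.24, 5.14, 5.09 and 5.14, were below the Ctrl libraries, 5.90, 5.65, 6.15 and 6.0, but the difference of −0.78 did not pass (adjusted p = 0.153). It passed in a fit of the 8 libraries alone, with the same difference. In *Pou5f1*-KO the same window differed by −2.66, and the difference between the knockouts was 1.88 (adjusted p = 0.0216).

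**Figure D3:**
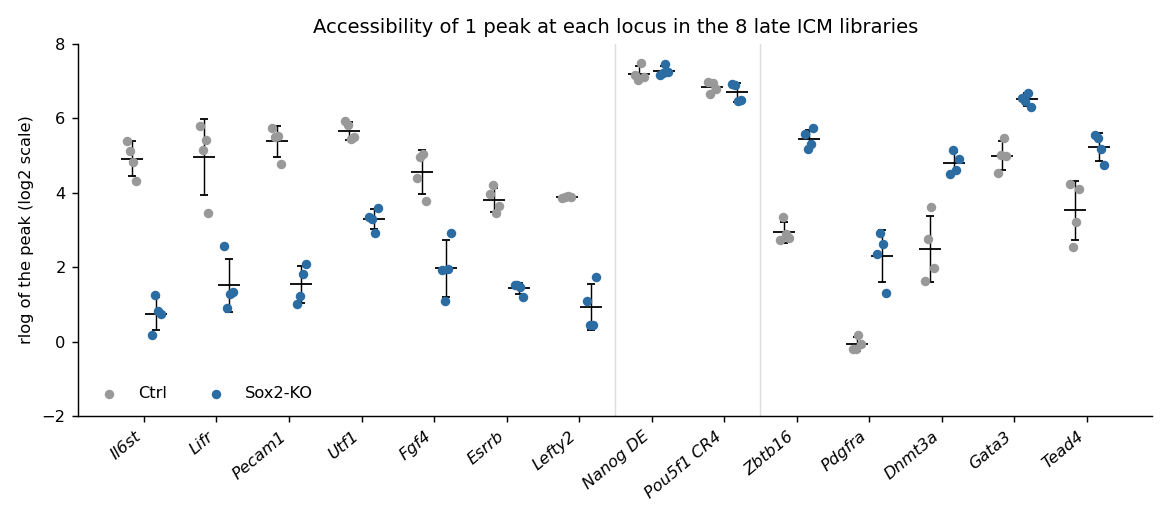
rlog values (log2 scale, vertical axis) of 1 peak at each of 14 loci in the 4 *Sox2*-KO (blue) and 4 Ctrl (grey) late ICM libraries, with mean and SD. The first 7 loci are decreased with no overlap, the *Nanog* and *Pou5f1* enhancers overlap, and the last 5 loci are increased.

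Genes were then grouped into 13 lists, and a peak was given to a gene when it lay in it or within 10 kb. The LIF and STAT3 pathway had the largest share of decreased peaks of these lists, 19 of 175 (10.9%, against 4.88% of all peaks), with a median of −0.18. Its 8 increased peaks (4.57%) were also above the share of all peaks, 2.71%. LIF signals through a receptor pair, the products of *Lifr* and *Il6st* (gp130), to JAK kinases and STAT3, and sustains naive pluripotency. A peak 1.43 kb upstream of *Il6st* read 0.19, 1.26, 0.83 and 0.74 in KO and 5.40, 5.13, 4.83 and 4.32 in Ctrl, a difference of −4.16 (adjusted p = 8.43e-13). A peak 8.57 kb upstream of *Lifr* read 2.56, 0.90, 1.27 and 1.34 against 5.80, 5.16, 5.42 and 3.47, a difference of −3.45 (adjusted p = 4.91e-11). At both receptor genes even the highest KO library was below the lowest Ctrl library.

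*Lifr* had 6 decreased peaks of 19, *Il6st* 3 of 11 and *Bcl3*, which encodes a nuclear IκB protein, 4 of 11, and none of these genes had an increased peak. *Il6ra*, the interleukin 6 receptor, had 2 decreased and 1 increased. The lead calls of *Bcl3* and *Il6ra*, −1.23 and −1.90, were lost without Ctrl library 2 (−1.12) and Ctrl library 1 (−1.46). *Jak1* had 3 increased peaks, the lead one with 3.17, 1.44, 1.65 and 2.72 in KO and 0.37, 0.89, 0.24 and 0.58 in Ctrl (difference 1.73, adjusted p = 0.0046). Without KO library 1 that difference was 1.42 and did not pass. The related kinase gene *Jak2* had 1 decreased peak (−2.45, adjusted p = 3.64e-05), *Ptpn11*, which encodes the phosphatase SHP2, 2 with a lead of −2.71 (adjusted p = 4.84e-10), and *Stat3* 2 increased ones with a lead of 1.47 (adjusted p = 0.0327). So the list held peaks of both directions. Of the 19 decreased peaks 15 were also decreased in *Pou5f1*-KO late ICM, as were 70.2% of all decreased peaks. The *Lifr* peak differed more in *Sox2*-KO than in *Pou5f1*-KO (−1.12 there), by −2.33 (adjusted p = 0.0178).

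Genes of core and naive pluripotency had 26 decreased (7.34%) and 8 increased peaks of 354, with a median of −0.10, and the decreases were spread over 14 genes. *Pecam1* led with 5 decreased peaks of 24 and *Utf1* followed with 4 of 12 and 1 increased. *Esrrb*, an orphan nuclear receptor, had 2 decreased peaks and 1 increased of 36, the lead one with 1.52, 1.51, 1.47 and 1.20 in KO and 3.96, 4.20, 3.45 and 3.65 in Ctrl (difference −2.39, adjusted p = 2.26e-05). The lead peaks of *Dppa5a*, an RNA-binding protein gene of the early embryo, and *Mybl2*, a cell cycle factor, differed by −1.80 (adjusted p = 0.000415) and −1.87 (adjusted p = 0.000703). Increased peaks were found at 7 genes of the list, and their share of 2.26% was under the 2.71% of all peaks. Among these, *Sall4*, a zinc finger factor of pluripotent cells, had 2 increased peaks with a lead of 1.53 (adjusted p = 0.0026), and *L1td1*, *Klf2* and *Zfp42* had 1 each, at 1.38, 1.43 and 1.02. Most peaks at *Nanog* did not pass the threshold, with 1 of 11 decreased. Of the 26 decreased peaks 21 were also decreased in *Pou5f1*-KO late ICM, where 70.2% of all decreased peaks were.

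The locus with the most decreased peaks close together was *Fgf4*, the main FGF ligand of the epiblast. A run of 10 decreased peaks lay within 23.9 kb on chromosome 7, from 144851552 to 144875479, where 12 peaks were measured. Their mean rlog was 2.84, 2.54, 2.57 and 2.89 in KO and 4.33, 4.24, 4.29 and 3.85 in Ctrl. The lead peak read 1.93, 1.08, 1.94 and 2.93 against 4.41, 4.97, 5.05 and 3.77, a difference of −2.58 (adjusted p = 1.67e-06). The 8 libraries fell into their groups without overlap. Of the 10, 7 were also decreased in *Pou5f1*-KO late ICM and 1 in *Sox2*-KO early ICM, where 70.2% and 30.1% of all decreased peaks were. Their median from morula to late ICM in Ctrl of the *Pou5f1* line was 1.25. None of the 10 held the OCT-SOX word with up to 1 mismatch, which was in 8.44% of all decreased peaks.

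The FGF and ERK list as a whole had 16 decreased and 8 increased peaks of 292 (5.48% and 2.74%, near the shares of all peaks), and 9 of the 16 were those of *Fgf4*. *Grb2*, an adaptor of receptor tyrosine kinases, had 2 decreased peaks of 27. *Fgf10* had 3 decreased of 14, with a lead difference of −1.25 (adjusted p = 0.00237). *Sos1*, the exchange factor that activates Ras, had 3 increased peaks (lead 1.40, adjusted p = 0.00343), and *Spred2*, an inhibitor of the pathway, also 3 (lead 1.53, adjusted p = 0.0125), a call lost without Ctrl library 1 (0.96) or KO library 3 (1.31). All 8 libraries were grown with an inhibitor of MEK, a kinase of this pathway.

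Nodal and BMP genes had 7 decreased and 7 increased peaks of 211, 3.32% each, which is under the share of all peaks for decreases and near it for increases. *Lefty2*, a secreted Nodal antagonist, had a window with the exact OCT-SOX word 4.31 kb upstream that read 1.09, 0.46, 0.44 and 1.75 in KO and 3.85, 3.90, 3.92 and 3.89 in Ctrl (difference −2.96, adjusted p = 1.26e-07). *Skil*, a repressor of SMAD signalling, also had a window with the exact word, with a difference of −2.19 (adjusted p = 4.06e-05), and 3 increased peaks elsewhere. In an intron of *Smad2* the difference was −2.37 in *Sox2*-KO (adjusted p = 7.08e-07) and 0.27 in *Pou5f1*-KO, and the test of the difference between them gave −2.64 (adjusted p = 0.00211). *Acvr2a*, a receptor, had a lead difference of −1.64 (adjusted p = 0.0013), and *Smad7*, an inhibitor, of 1.42 (adjusted p = 0.00542). *Nodal* itself had 1 decreased peak of 4 (−1.38, adjusted p = 0.0442).

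The Wnt list had 8 decreased (3.12%) and 5 increased (1.95%) peaks of 256, both under the shares of all peaks. *Tcf7l1*, the repressor of Wnt targets in pluripotent cells, had 4 of the decreases and 1 increase. Its lead peak, with 1 OCT-SOX mismatch, read 2.12, 1.74, 2.78 and 2.25 in KO and 4.89, 4.42, 3.88 and 4.54 in Ctrl, a difference of −2.21 (adjusted p = 2e-05). *Tcf7l2*, a related factor, had 2 increased peaks (lead 1.59, adjusted p = 0.0137, lost without Ctrl library 4 at 1.45). *Lrp5*, *Fzd7* and *Porcn* had 1 called peak each, with differences of 1.25, −1.73 and −1.61, the one given to *Lrp5* lying 1.47 kb upstream of *Ppp6r3*. The *Fzd7* call was lost without KO library 3 (−1.39).

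Chromatin regulators had 17 decreased (3.59%) and 5 increased (1.06%) peaks of 473, which is not above the shares of all peaks. *Zfp57*, which guards imprints, had 3 decreased of 12, the lead one at 1.93, 1.79, 1.75 and 0.68 in KO and 4.20, 4.16, 3.73 and 3.83 in Ctrl (difference −2.44, adjusted p = 5.47e-05). The acetyltransferase gene *Kat2b* had a peak at −0.21, −0.08, 0.43 and 0.17 in KO against 3.46, 3.17, 2.86 and 2.71 in Ctrl (difference −2.97, adjusted p = 2.39e-08). The histone demethylase genes *Kdm6a* and *Kdm4c* and the corepressor gene *Sap30* had 2 decreased peaks each, with lead differences of −2.38, −2.50 and −1.91. *Ezh2*, the Polycomb methyltransferase, and *Uhrf1*, a cofactor of maintenance methylation, had 1 each (−2.53 and −2.44).

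At SOX genes, 8 of 96 peaks were decreased (8.33%) and 3 increased (3.12%), 2 of the decreases being those at *Sox2*. A peak within 10 kb of *Sox30* held the exact OCT-SOX word and read 1.72, 1.43, 1.03 and 1.52 in KO and 4.93, 5.17, 5.31 and 4.58 in Ctrl (difference −3.57, adjusted p = 5.4e-11). It is 31.9 kb from the nearest annotated start site, of *Gm12166*. *Sox21*, *Sox13* and *Sox5* had lead differences of −2.44 (adjusted p = 2.96e-05), −1.52 (adjusted p = 0.0111) and 1.83 (adjusted p = 0.00212), that of *Sox13* being lost without KO library 1 (−1.04) or Ctrl library 2 (−1.37). Of the 74 peaks at POU genes 0 were called in either direction by limma, with 5 lower and 3 higher at an unadjusted p under 0.05. The housekeeping list had 6 decreased and 5 increased peaks of 152 (3.95% and 3.29%), which shows the shares at genes used in all cells. Called peaks stood at *Rab7*, *Ywhaz*, *Hprt*, *Rpl13a*, *Pgk1* and *Actb*, with lead differences from −2.16 to 1.67, the *Hprt* one being lost without Ctrl library 1 (1.42).

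**Figure D4:**
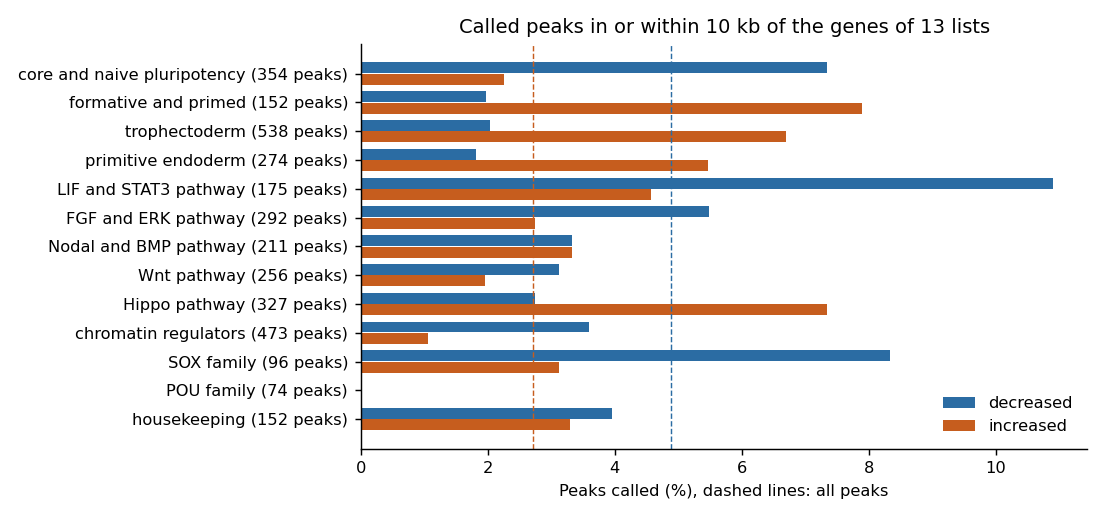
Share of peaks (%, horizontal axis) decreased (blue) and increased (orange) in *Sox2*-KO late ICM for the genes of 13 lists, with dashed lines at the shares of all peaks, 4.88% and 2.71%. Decreased shares are highest in the LIF and STAT3 list, at 10.9%, and increased shares in the formative and primed list, at 7.89%. With peaks up to 50 kb from a gene, or within 10 kb of a start site, the trophectoderm list had the highest increased share, at 7.26% and 8.91%.

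Counted by gene, 3278 of 18372 protein-coding genes with a peak had at least 1 decreased peak, 2326 at least 1 increased peak and 474 both. Long genes can hold more peaks, so the counts are set beside the number of peaks measured. *Dpys*, an enzyme of pyrimidine breakdown, had 8 of 10 peaks decreased, *Malrd1* 8 of 13, *Fgf4* 9 of 14 and *Otog*, which encodes a protein of the inner ear, 8 of 18. The lead peak of *Dpys* read 2.15, 0.69, 2.20 and 1.09 in KO and 5.54, 5.14, 5.18 and 4.86 in Ctrl (difference −3.65, adjusted p = 4.1e-10). *Etl4* had 14 of 81 decreased, *Dock5* 9 of 30, *Magi2* 9 of 48, *Tmem241* 8 of 37 and *Ptprg* 8 of 75. The model *Gm20388* had 12 of 542, but it spans 4430 kb and many other genes.

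The peak in *Malrd1* belonged to family 1 and read 2.03, 1.84, 2.80 and 2.06 in KO and 6.79, 5.95, 5.94 and 6.07 in Ctrl. It differed by −4.01 in *Sox2*-KO and −1.85 in *Pou5f1*-KO, and the difference between the knockouts passed the threshold (−2.16, adjusted p = 0.0145). The peak in *Otog* differed by −3.40 in *Sox2*-KO and −1.52 in *Pou5f1*-KO (−1.88, adjusted p = 0.0133). The lead peaks of *Etl4*, *Magi2*, *Dock5*, *Tmem241* and *Ptprg* differed by −3.62, −2.73, −2.70, −2.96 and −2.12.

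Called peaks were grouped into clusters where no more than 12.5 kb lay between neighbours. Decreased peaks formed 369 clusters of at least 3 and increased peaks 141, or 218 and 62 where no more than 5 kb was allowed. Next to that of *Fgf4*, the largest decreased clusters held 9 peaks near *2700062C07Rik*, 8 near *Eed*, a Polycomb subunit, 7 each near *Pla2g10*, *Cyp2b23* and *Clec2g*, and 6 each near *Klrb1f* and *Zc3h13*. The deepest of these 8 was the cluster between *Clec2e* and *Klrb1f*, genes of the natural killer receptor complex, with a median of −3.60 over 27 kb. Its peaks averaged 1.20, 0.50, 0.70 and 0.73 in KO and 4.08, 3.90, 3.65 and 4.05 in Ctrl. All 6 of its peaks were more than 50% soft-masked, as were 6 of 7 near *Clec2g* and 5 of 7 near *Cyp2b23*, against 1 of 6 near *Zc3h13*. The lead peaks of the clusters near *2700062C07Rik* and *Eed* held the OCT-SOX word and differed by −3.67 and −3.36.

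The largest fall of all was at a family 1 window 252 kb upstream of *Sema3a*, an axon guidance ligand, that read 1.28, 2.10, 3.06 and 1.66 in KO and 6.95, 6.48, 6.44 and 6.56 in Ctrl, a difference of −4.58 (adjusted p = 4.02e-18). The window at the start site of *Ssr2*, a subunit of the translocon-associated complex, read 1.16, 0.58, 1.00 and 1.48 against 5.65, 5.92, 5.13 and 5.49, a difference of −4.49 (adjusted p = 5.62e-15). It holds an OCT-SOX word with 1 mismatch. The windows nearest to *Rbmxl2*, *Olfr761*, *Gm11983*, *Gpr158* and *Zfp493* differed by −4.42, −4.39, −4.31, −4.28 and −4.28, each also lower in *Sox2*-KO early ICM, by −2.53 to −3.53.

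Among promoters the largest decreases after *Ssr2* were at *Etv1*, an ETS factor, with 1.84, 0.46, 2.27 and 2.43 in KO and 5.45, 5.64, 5.57 and 5.22 in Ctrl (difference −3.72, adjusted p = 5.48e-11), and at *Traf3ip2*, an adaptor of interleukin 17 signalling (−3.13, adjusted p = 3.99e-08). *Frmd4b*, *Spire1*, *Cnga4*, *Pipox* and *Alg13* followed with −2.62, −2.45, −2.42, −2.24 and −2.13. The windows of *Ssr2*, *Traf3ip2*, *Frmd4b* and *Pipox* held the OCT-SOX word. All 8 were also decreased in *Pou5f1*-KO late ICM, by −2.39 to −4.05. Increased promoters were those of *Pxk*, *Tceal9*, *Ddx31*, *Cdk14*, *Adh1*, *Tdrd7*, *Itgb5* and *Ankrd1*, with differences of 2.10 down to 1.51. Of these, *Pxk*, *Ddx31* and *Ankrd1* had KO and Ctrl libraries that overlapped. Calls were lost at *Ddx31* without Ctrl library 3 (1.25) or 4 (1.42), at *Tdrd7* without Ctrl library 1 (1.40) or KO library 1 (1.41), and at *Ankrd1* without any of 5 libraries (1.22 to 1.44). *Adh1*, an alcohol dehydrogenase, read 4.0, 4.11, 4.16 and 4.32 in KO and 2.19, 2.23, 1.94 and 3.60 in Ctrl (difference 1.66, adjusted p = 0.00521).

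Peaks at trophectoderm genes were more often increased than decreased, with 36 increased (6.69%, against 2.71% of all peaks) and 11 decreased of 538 and a median of 0.22. Of the 36, 16 were assigned to *Fgfr2*, whose annotated model spans 2960 kb over other genes. Without *Fgfr2* there were 20 increased (7.38%) and 6 decreased peaks of 271. Increases were found at 14 genes of the list. In an intron of *Tead4*, the TEAD factor of the early trophectoderm, values were 5.55, 5.46, 5.19 and 4.74 in KO and 4.24, 2.55, 3.22 and 4.11 in Ctrl (difference 1.70, adjusted p = 0.0003). *Lrp2* (megalin) had 3 increased peaks with a lead of 1.88 (adjusted p = 0.00149), and *Wnt7b* 3 with a lead of 0.92 (adjusted p = 0.0069, and 0.069 without the variance trend). Peaks at *Msx2*, *Tfap2a*, *Tfap2c* and *Cdh3* went down instead, with lead differences of −2.12, −2.68, −1.53 and −2.54. The lead peak given to *Fgfr2*, with a difference of 2.32 (adjusted p = 1.43e-05), is 85.7 kb upstream of *Chst15*.

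The same direction was seen at start sites of the marker genes. Over the 21 peaks within 1 kb of a start site of 12 trophectoderm markers, the mean rlog of a library was 3.48 to 3.81 in KO and 3.01 to 3.34 in Ctrl, with 2 peaks increased, at *Cdx2* and *Gata3*, and none decreased. Over the 13 peaks of 8 epiblast markers it was 3.38 to 3.69 in KO and 4.33 to 4.42 in Ctrl, with 4 decreased, at *Fgf4*, *Prdm14*, *Sox2* and *Utf1*. The *Sox2* windows lie in the part that the KO allele lacks. Without them, over 11 peaks, the range was 3.76 to 4.20 in KO and 4.52 to 4.72 in Ctrl, with 3 decreased. Over the 22 peaks of 10 primitive endoderm markers it was 2.81 to 3.30 and 2.73 to 3.06, with 2 increased, both at *Dab2*. Since each library is a pool of whole ICMs, more cells of a type and more accessibility per cell cannot be told apart. The part of leftover trophectoderm in these values was not tested.

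Hippo pathway genes, which set TEAD activity, had 24 increased (7.34%) and 9 decreased peaks of 327. *Tead1* had 8 increased and 2 decreased of 56, with a lead peak at 6.49, 6.59, 6.95 and 6.65 in KO and 5.73, 5.53, 4.97 and 5.19 in Ctrl (difference 1.32, adjusted p = 0.000236). *Vgll4*, a TEAD cofactor that competes with YAP, had 6 increased of 24, with a lead of 2.07 (adjusted p = 0.000336). All KO libraries lay above all Ctrl libraries at both lead peaks. *Stk3*, the kinase MST2, *Nf2* and *Wwtr1* (TAZ) had peaks in both directions, and their lead peaks were decreased, with differences of −2.80, −1.83 and −1.34, the last being lost without Ctrl library 1 (−1.13) or KO library 2 (−1.10).

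The formative and primed list had 12 increased (7.89%, against 2.71% of all peaks) and 3 decreased peaks of 152. With peaks up to 50 kb from a gene counted, 16 of 345 (4.64%) were increased. *Dnmt3a*, a de novo DNA methyltransferase, had 4 increased of 29, the lead one with 4.51, 5.15, 4.62 and 4.92 in KO and 1.62, 2.77, 3.62 and 1.99 in Ctrl (difference 2.30, adjusted p = 6.34e-05). *Grhl2*, an epithelial factor, had 4 increased and 1 decreased of 28, with a lead of 1.45 (adjusted p = 0.00218). *Lin28a* and *Lin28b*, RNA-binding proteins that block let-7, had 1 increased peak each (1.65 and 1.54). *Otx2*, a homeobox factor of the formative state, had 2 decreased peaks of 8, the lead one at −1.60 (adjusted p = 0.00905), which did not pass without KO library 3 (−1.28).

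At primitive endoderm genes 15 peaks were increased (5.47%) and 5 decreased of 274. The intron of *Pdgfra*, a receptor that marks this lineage, had a peak at 2.35, 2.91, 2.63 and 1.32 in KO and −0.21, −0.20, 0.19 and −0.07 in Ctrl, a difference of 2.37 (adjusted p = 3e-06). All KO libraries were above all Ctrl libraries, which were near 0 on the rlog scale. *Dab2*, an endocytic adaptor, had 4 increased of 21 (lead 1.37, adjusted p = 0.0217), and the lead call was lost without any of 4 libraries (1.20 to 1.29). *Hnf4a*, a nuclear receptor, had 3 increased and 1 decreased of 17, the decreased one leading at −2.11 (adjusted p = 4.04e-05). The laminin genes *Lama1* and *Lamc1* had peaks in both directions, with lead differences of −2.15 and −1.55, the latter lost without Ctrl library 2 (−1.31) or KO library 2 (−1.17).

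Among single increases, a peak in *Zbtb16*, a zinc finger repressor, was also among the largest. It read 5.58, 5.17, 5.30 and 5.73 in KO and 2.74, 3.35, 2.89 and 2.79 in Ctrl, a difference of 2.50 (adjusted p = 8.45e-07), and 8 of the 18 peaks at this gene were increased. Its difference was 1.93 in *Sox2*-KO early ICM and 2.8 in *Pou5f1*-KO late ICM. The other 7 of the largest increases were nearest to *Pmm2*, *Gm3839*, *Cers6*, *Tenm4*, *Adk*, *Whrn* and *Anapc15-ps*, with differences of 2.52, 2.51, 2.49, 2.47, 2.42, 2.42 and 2.40. At *Cers6*, a ceramide synthase gene, the values were 2.63, 3.44, 2.07 and 2.36 in KO and 0.29, 0.73, −0.36 and −0.12 in Ctrl. At these 7 early ICM differed by −0.17 to 1.15, which did not pass the threshold.

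By gene, *Fmnl2*, a formin, had 12 of 48 peaks increased, *Shroom3* 10 of 70, *Magi1* 10 of 73, *Nav2* 9 of 50, *Prkce* 8 of 42 and *Nedd4l* 8 of 81. *Shroom3* and *Magi1* encode proteins of epithelial cell junctions and shape. The lead peak of *Shroom3* read 5.96, 6.08, 5.82 and 5.69 in KO and 3.97, 3.86, 4.27 and 4.12 in Ctrl (difference 1.83, adjusted p = 3.66e-05). In all 10 of the genes with most increased peaks the lead peak had every KO library above every Ctrl library, and the lead differences ran from 1.13 to 2.50. Lead peaks were picked by their adjusted p in this comparison, so the gap is a description. It was seen at 3274 of the 4129 increased peaks and at 5.63% of all peaks.

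The increased clusters were smaller than the decreased ones. Between *Lrp2* and *Bbs5* there were 7 over 17.7 kb, and 6 each in *Fmnl2* and near *Ube2h* and *Errfi1*, a feedback inhibitor of EGF receptor signalling. A cluster of 5, with no other peak among them, lay 114210 bases from *Gata3* within 8.66 kb, with means of 5.24, 5.40, 5.75 and 4.94 in KO and 3.66, 3.95, 4.29 and 3.72 in Ctrl. All 5 were also increased in *Pou5f1*-KO late ICM, as were 37.5% of all increased peaks. None of the 5 held the OCT-SOX word, which was in 0.242% of increased and 0.887% of all peaks. Clusters of 5 were also found at *Myo1d* and near *Sncaip*.

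The decreased and increased peaks were then read in comparisons whose libraries entered the calls through the variance estimate alone. Of the 7440 decreased peaks, 2243 (30.1%) were decreased in *Sox2*-KO early ICM, where 1.91% of all peaks were. None were increased there by limma, with 23 at an unadjusted p under 0.05, and the median was −0.99. In *Pou5f1*-KO late ICM 5226 (70.2%) were decreased, where 10.1% of all peaks were, with a median of −1.62. From morula to late ICM in Ctrl of the *Pou5f1* line 4464 (60%) rose and 258 fell, where 21.9% of all peaks rose, with a median of 1.35. The morula libraries were neither treated with the inhibitor nor put through immunosurgery, so stage and treatment cannot be told apart.

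For the increased peaks the other libraries showed less. In *Sox2*-KO early ICM 58 of 4129 (1.4%) were increased, where 0.238% of all peaks were, with a median of 0.33. In *Pou5f1*-KO late ICM 1550 (37.5%) were increased, where 8.19% of all were, with a median of 0.80. From morula to late ICM their median was −0.03. Seen from the other lists, the shared decreases were 76.9% of those in *Sox2*-KO early ICM and 33.9% of those in *Pou5f1*-KO late ICM, and the shared increases 16% and 12.4%.

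**Figure D5:**
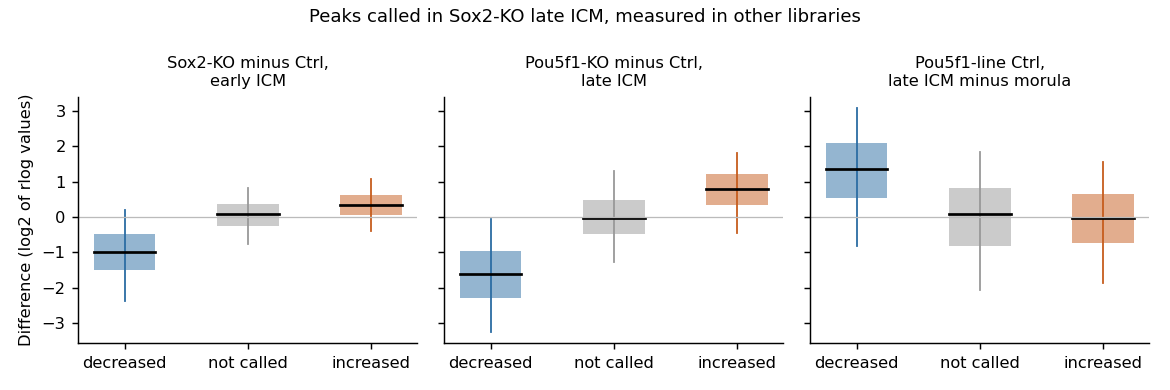
Differences (log2, vertical axis) in 3 comparisons that share no library with *Sox2*-KO against Ctrl late ICM, for peaks decreased, not called or increased there. Boxes span the 25th to 75th percentile, thin lines the 5th to 95th and black lines mark the median, for example −0.99, 0.07 and 0.33 in early ICM.

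The decreased peaks were split by their call in *Pou5f1*-KO late ICM. The 5226 decreased in both held the OCT-SOX word in 10.5% of cases and the SOX word in 20.4%. The 2193 not called in *Pou5f1*-KO held them in 3.65% and 19.3%. Their medians from morula to late ICM were 1.66 and 0.53. A missing call is not a difference, and the difference itself was tested. The effect was more negative in *Sox2*-KO than in *Pou5f1*-KO at 535 peaks, which is 0.351% of all peaks, and more positive at 844 (0.554%). Without KO library 2 these counts were 287 and 498, and the count of 844 was 544 after quantile normalization. Of the 535, 126 were decreased and 409 not called in *Sox2*-KO, and 424 were increased in *Pou5f1*-KO. Of the 844, 123 were increased, 32 decreased and 689 not called in *Sox2*-KO, and 740 were decreased in *Pou5f1*-KO.

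The peaks with the smallest p of that test among those called in *Sox2*-KO were picked after their values were seen. Near *Smco4* the difference was −1.32 in *Sox2*-KO and 1.90 in *Pou5f1*-KO, and near *Spn* −1.34 and 1.87. The windows nearest to *Hs3st5* and *Zfp804b* fell in *Sox2*-KO, by −3.01 and −3.42, while in *Pou5f1*-KO the differences of −0.59 and −0.70 did not pass. The reverse, an increase in *Sox2*-KO and a decrease in *Pou5f1*-KO, was found near *Gm21190*, *Cdc14b*, *Dlgap2* and *Zfp385b*. At *Dlgap2* the *Sox2* values were 3.69, 4.90, 4.13 and 3.59 in KO and 1.97, 2.21, 1.52 and 1.83 in Ctrl, and the differences were 2.19 and −1.18. The *Sox2*-KO calls near *Spn*, *Gm21190*, *Cdc14b* and *Zfp385b* were lost when single libraries were left out, with differences of −1.14 to −1.32, 1.05 to 1.13, 1.07 to 1.38 and 1.21 to 1.35.

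The test of a difference in the *Sox2*-KO effect between stages was passed at few peaks. This difference carries the spread of both effects, so a peak that does not pass is not shown to respond alike. The effect was more negative in late than in early ICM at 25 peaks (0.0164%) and more positive at 4 (0.00262%). Of the 25, 24 were decreased in late ICM and none in early ICM. A window in an intron of *Trim16*, 1.17 kb upstream of *Fbxw10*, read −0.12, 0.04, 0.55 and 0.33 in KO and 4.5, 4.64, 3.20 and 3.70 in Ctrl, and differed by −3.81 in late and −0.20 in early ICM (difference −3.62, adjusted p = 0.00388). Others were near *Cd38* (−2.89 and 0.53), in *Lsamp* (−2.21 and 0.63) and near *Opa1* (−2.18 and 0.60). The 4 in the other direction, in *Sgpp2*, *Cap1*, *Anxa3* and *Cald1*, were named after their values were seen. They differed by 2.22, 0.68, 1.82 and 1.73 in late and by −0.66, −1.49, −1.37 and −0.41 in early ICM. The count of 25 fell to 7 when the first Ctrl library was left out and rose to 38 without the third, and that of 4 fell to 0 and rose to 12 without the same libraries.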

How the data were processed

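The deposited table gives, for 152393 windows of 200 bp, rlog values on a log2 scale in 44 libraries. Per the study's methods, the authors trimmed reads with SeqPurge, aligned them to mm10 with Bowtie2, removed duplicates with Picard, kept uniquely mapped reads of mapping quality at least 30, shifted the read ends for Tn5, called peaks with MACS2, merged summits over all embryo groups, counted insertions with BEDTools and made the rlog values with DESeq2. A second table of group means was not used.

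From these values limma was fitted to all 44 libraries with a mean per group and a mean-dependent variance, and *Sox2*-KO minus Ctrl late ICM was tested with Benjamini-Hochberg adjustment over all peaks, as were *Sox2*-KO early ICM, *Pou5f1*-KO late ICM, late ICM minus morula and the differences between effects. "Increased" and "decreased" mean an adjusted p under 0.05. The study's own test used the counts, so the calls here are not the study's. The limma fit was first tested on simulated data. Windows were annotated with GENCODE vM21 (the study used vM23) and read from the GRCm38 reference. The members and gene lists were chosen with earlier results of these data known. Named peaks are those at *Sox2*, at enhancers the study lists, the 8 largest of each direction without overlap between groups, the lead peaks of the 10 genes with most calls, of the 8 largest clusters and of up to 5 genes of each list, the 8 largest at promoters, the 6 printed windows with the OCT-SOX word and, chosen after their values were seen, peaks whose effect differed between stages or knockouts and the printed family windows. A few other list members are named with their lead peaks. Some items that the rule names are not reported here. Alternatives were the libraries fitted, a filter on weak peaks, scaling, the variance prior, library weights, a replicate block, the distance that gives a peak to a gene, the cluster gap and each library left out in turn, and, chosen after seeing the data, the family threshold, the OCT-SOX share outside families, the trophectoderm list without *Fgfr2* and the epiblast markers without *Sox2*.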

Additional observations from a re-analysis of the deposited data

Results flagged for a closer look

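At 11 of 324 groups of 4 libraries tested, 1 library stood apart from the other three by Dixon's criterion, where chance gives about 1 in 20. Ctrl library 1 stood apart at 5 of these peaks. It was low at the *Sox2* window 480 bases upstream (2.35), at *Fmnl2* (2.50), at the *Tdrd7* promoter (0.60) and near *Zfp804b* (5.23), and high at *Malrd1* (6.79). Ctrl library 3 was low near *Klrb1f* (4.30). Among KO libraries, library 1 was high near *Gm11983* (1.59), library 2 at *Hnf4a* (2.63) and at *Lsamp* (0.58), and library 4 low at *Esrrb* (1.20) and near *Zfp57* (0.68).

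The effect in late ICM differed between *Sox2*-KO and *Pou5f1*-KO by limma's test of the difference at 19 named peaks. It was more positive in *Sox2*-KO at the peak 48.7 kb downstream of *Sox2* (1.95), at *Klf4*-B (1.88), *Cers6* (2.40), *Tenm4* (2.39), *Anapc15-ps* (2.60), *Sgpp2* (2.32), *Cald1* (2.19), *Gm21190* (2.99), *Cdc14b* (3.36), *Dlgap2* (3.37) and *Zfp385b* (3.15). It was more negative at *Malrd1* (−2.16), *Otog* (−1.88), *Lifr* (−2.33), *Smad2* (−2.64), *Smco4* (−3.22), *Hs3st5* (−2.42), *Spn* (−3.22) and *Zfp804b* (−2.72).

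Between late and early ICM the *Sox2*-KO effect was more positive at *Sgpp2* (2.88), *Cap1* (2.18), *Anxa3* (3.20) and *Cald1* (2.15). It was more negative near *Fbxw10* (−3.62), near *Cd38* (−3.43), at *Lsamp* (−2.84) and near *Opa1* (−2.78).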

How the results depend on the processing

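The counts of decreased and increased peaks, 7440 and 4129, were 8198 and 5996 in a fit of the 8 libraries alone, 6653 and 3390 with the 16 *Sox2*-line libraries, 6509 and 3477 after quantile normalization, 6911 and 5200 after median centring, 7228 and 3452 without the variance trend and 8622 and 5958 with library weights. When only the stronger-signal peaks, those whose mean rlog reached the median, were tested, 3150 were decreased and 2832 increased. Nothing in the labels says whether the replicate numbers pair the libraries. The deviations of same-numbered KO and Ctrl libraries correlated at −0.0248 to 0.0903 across peaks. Those of differently numbered libraries correlated at −0.105 to 0.0911. With the number as a replicate block 8966 were decreased and 6433 increased, and the peaks whose effect differed between stages rose to 115 and 85 and between knockouts to 1391 and 1870. The cause was not tested.

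With each library left out in turn, 6036 to 6613 peaks were decreased and 2363 to 3755 increased, the latter being 2363 without KO library 3, 2640 without KO library 2 and 2673 without Ctrl library 1. The peaks with a more negative or more positive effect in late than early ICM then numbered 7 to 38 and 0 to 12, and those with a more negative or more positive effect in *Sox2*-KO than in *Pou5f1*-KO 287 to 526 and 498 to 936. Without KO library 2 the last 2 counts were 287 and 498. The stage counts, 25 and 4, were 0 and 0 when only stronger-signal peaks were tested, and the first was 13 after quantile normalization and 14 after median centring. The count of 844 was 544 after quantile normalization.

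Of the 162 named peaks, 153 were called, 129 of them under every one of 16 settings that tested them. Of called named peaks, limma's adjusted p rose to 0.0506 at *Dab2*, 0.0529 at *Ankrd1* and 0.0678 at *Spn* with the 16 *Sox2*-line libraries, to 0.0674 at *Gm21190* and 0.0753 at *Zfp385b* after quantile normalization, and to 0.0584 at *Gm21190* and 0.069 at *Wnt7b* without the variance trend. The direction turned at values near 0, at the *Sox2* peak 2.94 kb downstream (−0.34 to 0.08 with each library left out, above 0 without Ctrl library 1, 0.05, or KO library 4) and at the *Nanog* distal enhancer (−0.06 after quantile normalization), and neither was called. With 60 shared words in place of 30, a setting chosen after seeing the data, 4 families had most windows decreased, with 218 of 297. Insertion counts were not used, so depth and the precision of weak peaks are unknown, and rlog shrinkage limits what weak peaks can show.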
